A study of Mus musculus with 18 samples.

Results

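The comparison of angiotensin II (AngII) with saline covered 12 of the 18 libraries of the series, 6 per group, chosen by their treatment label. The AngII libraries came from cardiac tissue of wild-type C57BL/6 mice given 500 ng per kg per min of AngII for 28 days, and the saline libraries from wild-type mice given saline for 28 days. The last group of 6 libraries, from mice given the same AngII with 10 mg per kg per day of ethoxysanguinarine (AngII+ETH), entered the model to estimate the spread between libraries. Age, sex and the part of the heart taken are not given in the labels, and nothing says that the 6 libraries of a group are 6 different mice. Replicate numbers are names assigned here by accession order. The p-values describe the spread between these samples, which may be technical. The deposited values are per transcript and were read as FPKM, a fragment count divided by transcript length and library size. They were summed to genes, and 11703 genes with a mean of at least 1 FPKM in a group were tested. In bulk tissue, fewer cells of a type and less RNA per cell cannot be told apart.

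AngII is the effector peptide of the renin-angiotensin system. It acts mainly through the type 1 receptor, a Gq-coupled receptor on smooth muscle, fibroblasts and cardiomyocytes, raises blood pressure and loads the left ventricle. The usual readouts are the natriuretic peptides, fetal sarcomere genes and collagens, and 33 such genes were set aside here to describe the rest of the genome gene by gene.

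The chamber and fat content of the libraries differed within both groups, as the plot of Myl7, Myl2 and Adipoq by library shows. Myl7 encodes the light chain of atrial myosin. It was listed at 0 in AngII replicate 3 and lay between 1492 and 1983 FPKM in the other AngII libraries, while it was listed at 0 in saline replicate 5 and lay between 1804 and 3519 FPKM in the other saline libraries. Myl2, its counterpart in the ventricle, stood at 3.37 FPKM in AngII replicate 5 and 3904 to 6019 in the other AngII libraries. It was 3.77 FPKM in saline replicate 6, 361 in saline replicate 4 and 1749 to 6568 in the other 4 saline libraries. Adipoq, the adipocyte hormone adiponectin, was 0.0418 to 2.04 FPKM in AngII libraries, against 105 and 168 FPKM in saline replicates 4 and 6 and 0.158 to 15.8 in the other saline libraries. The 10 atrial markers summed to 50.9 to 11263 FPKM in AngII and 46.7 to 9767 in saline, and the 10 ventricular markers to 727 to 12850 in AngII and 423 to 12900 in saline. The 9 adipocyte markers found among 13 summed to 21.5 to 44.1 FPKM in AngII and 25.5 to 2780 in saline. These levels served as covariates, and the libraries concerned were left out, to see which results moved. Without the libraries with Myl7 or Myl2 below 10 FPKM, Myl2 was still 3904 to 4437 FPKM in AngII and 361 to 3422 in saline. That subset was therefore not balanced for chamber content. By the inferred depth, a 1 kb transcript at 1 FPKM rested on 63.9 to 80.9 fragments.

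**Figure D1:**
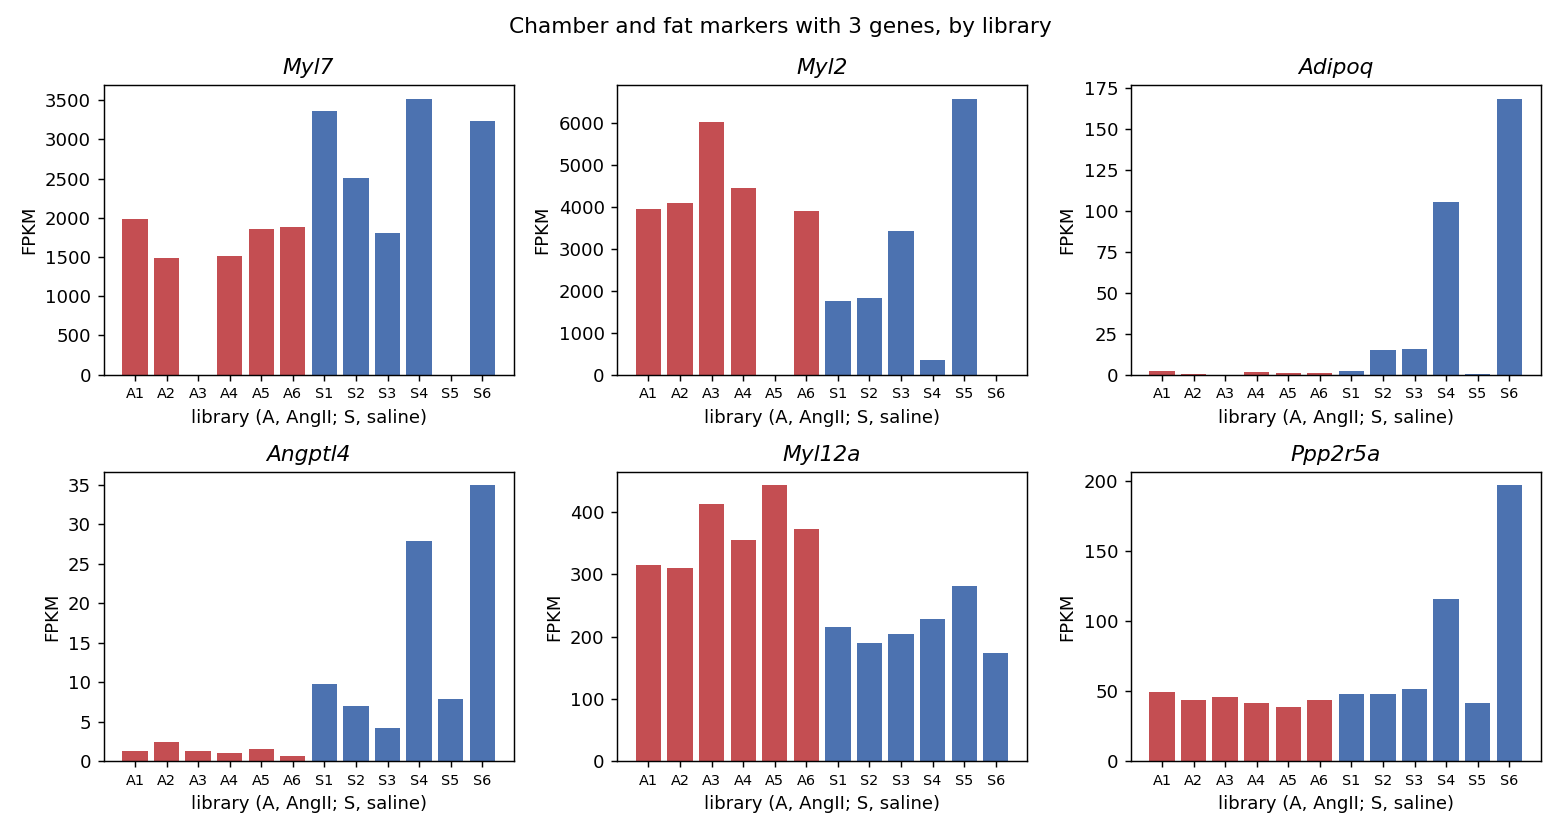
FPKM (linear axes from 0) of the chamber markers Myl7 and Myl2, the adipocyte marker Adipoq and 3 genes of this comparison in each AngII library (A1 to A6, red) and each saline library (S1 to S6, blue); each bar is 1 library. Adipoq, Angptl4 and Ppp2r5a peak in saline replicates 4 and 6, whereas the 6 Myl12a values of AngII (309 to 442 FPKM) all lie above the 6 of saline (174 to 282 FPKM).

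A single gene passed the threshold over all 11703 genes (limma, Benjamini-Hochberg adjusted p under 0.05), which is 0.00854% of those tested. It was Angptl4, a secreted inhibitor of lipoprotein lipase, and it was lower in AngII. Its level was 0.668 FPKM in the lowest AngII library, 1.27 in the median and 2.46 in the highest, against 4.23, 8.83 and 34.9 FPKM in saline. The log2 fold change of FPKM + 1 was -2.46 (SE 0.371, limma adjusted p = 0.0414). Saline replicates 4 and 6, rich in Adipoq, gave the top values of 27.9 and 34.9 FPKM, and without those 2 libraries the gene still passed (-1.79, SE 0.22, limma adjusted p = 0.00322). The call was lost with only the saline and AngII libraries in the fit (limma adjusted p = 0.423), with chamber and adipocyte covariates (-1.83, SE 0.453, limma adjusted p = 0.884), without the 5 libraries low in a chamber marker (Myl7 or Myl2 below 10 FPKM, limma adjusted p = 0.204), and without saline replicate 1 or 4 or any 1 of the 6 AngII libraries (limma adjusted p = 0.0578 to 0.161). A second Angptl4 transcript, listed in the saline and AngII files but not in the AngII+ETH files, stood at 0 to 0.543 FPKM in AngII and 0 to 2.26 in saline.

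The pseudogene Gm9531, named after its values were seen, came next by p, at 3.04 to 4.51 FPKM in AngII and 0.127 to 2.84 in saline (log2 fold change 1.30, SE 0.217, limma adjusted p = 0.0771). At an unadjusted p under 0.05, 384 genes were higher in AngII (3.28% of those tested) and 676 lower (5.78%). Higher genes made up 36.2% of these with the values as deposited, 47.2% after median-of-ratios scaling and 54.2% after quantile normalization, so the excess of lower genes depended on the scaling. The lower side also moved with the fat-rich saline libraries. Without saline replicates 4 and 6, 351 genes were higher and 216 lower, and 158 of the 676 lower genes remained, against 181 of the 384 higher genes. With chamber and adipocyte covariates 98 of the 384 higher and 111 of the 676 lower genes remained.

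In 42 genes (0.359% of those tested) the AngII and saline libraries did not overlap at all: 19 with every AngII library above every saline library (0.162%) and 23 with every AngII library below (0.197%). None of the 30 classic markers that were tested was among them, which says little at a share of 0.359%. At an unadjusted p under 0.05, 8 of these 30 were higher and 0 lower, against 3.28% and 5.78% of all tested genes. With chamber and adipocyte covariates 2 were higher and 0 lower, against 250 and 213 of all 11703 genes. Of the 34 protein-coding genes among the 42, 5 had a library listed at 0 and 29 were above 0 throughout, 12 of them higher and 17 lower in AngII. The 12 higher genes and the 12 lower ones with the smallest p are described next. The lack of overlap chose these genes, so their values are given as a description, and apart from Angptl4 none passed the threshold over all genes. Of the higher genes, Dynll2, Ahsa2 and Zfp945 did not reach an unadjusted p under 0.05 either (limma unadjusted p = 0.0534, 0.0731 and 0.12).

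**Figure D2:**
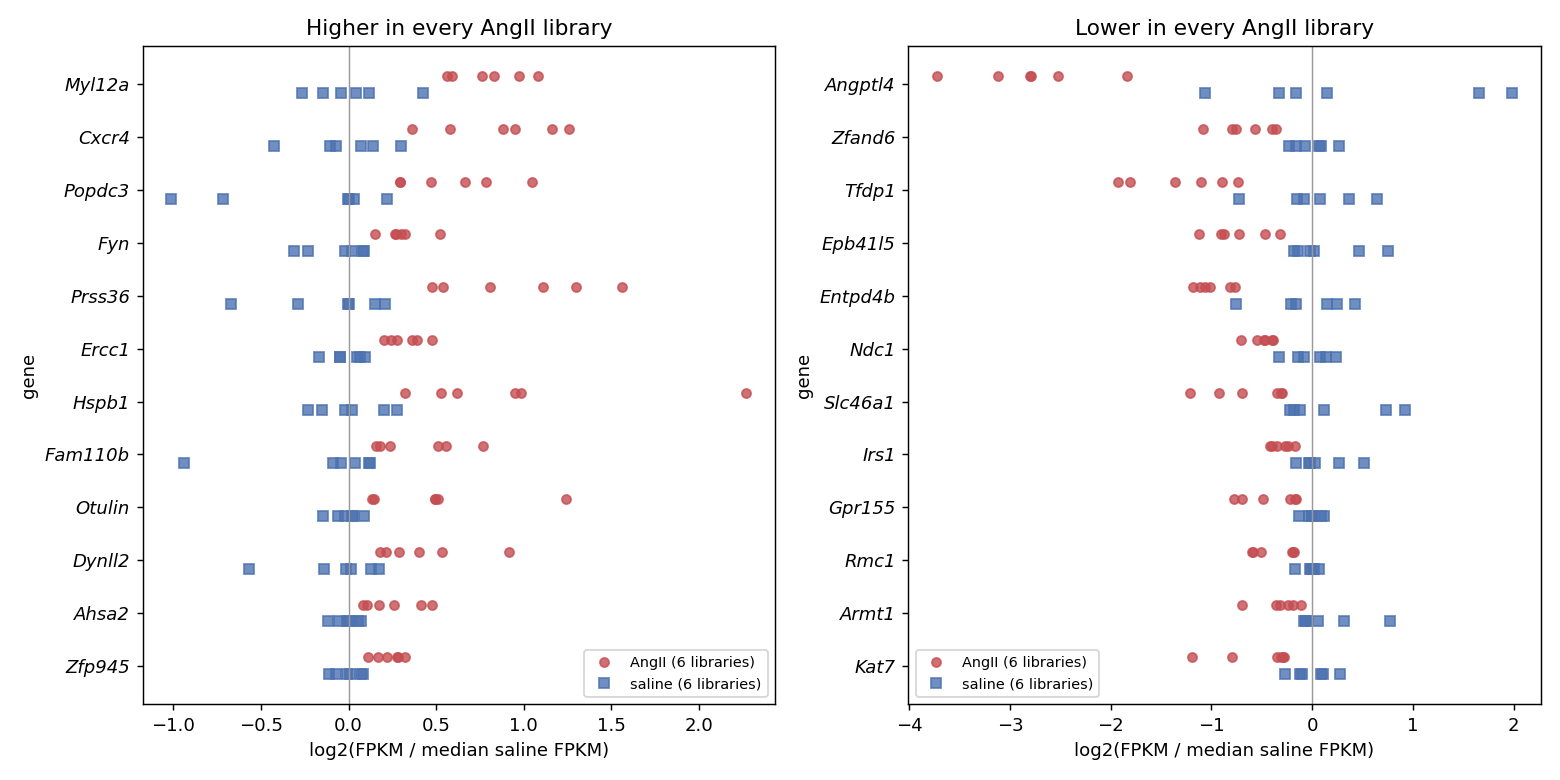
Level of 24 genes in each library as log2 of FPKM over the gene's median saline FPKM; red circles are the 6 AngII libraries and blue squares the 6 saline libraries of each gene, with 12 higher genes on the left and 12 lower genes on the right, ordered by p. The gap between groups is widest for Angptl4 and narrow for genes such as Kat7, where the highest AngII library had 7.05 FPKM and the lowest saline library 7.13.

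Among the higher genes, Myl12a, a regulatory light chain of non-muscle myosin II, had 309, 364 and 442 FPKM in the lowest, median and highest AngII library, against 174, 209 and 282 FPKM in saline (log2 fold change 0.77, SE 0.135, limma adjusted p = 0.0779). It missed the threshold, which it met with the chamber covariate or with sample weights. Most of the difference lay in the transcript Myl12a-201, at 204 to 265 FPKM in AngII and 75.4 to 177 in saline, whereas Myl12a-206 overlapped (51.3 to 171 FPKM in AngII, 49.9 to 134 in saline). Its close relative Myl12b, named after its values were seen, was 18.9 to 38.9 FPKM in AngII and 17.9 to 35.0 in saline (log2 fold change -0.08, SE 0.197). Reads shared between the related genes could be split either way by the authors' counting.

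Cxcr4, the receptor of the chemokine CXCL12, had 3.02, 4.43 and 5.62 FPKM in the lowest, median and highest AngII library, against 1.75, 2.35 and 2.89 FPKM in saline (log2 fold change 0.67, SE 0.135, limma adjusted p = 0.263). Its ligand gene Cxcl12, named after its values were seen, overlapped, at 24.4 to 55.9 FPKM in AngII and 26.3 to 49.6 in saline. Fyn, a Src-family tyrosine kinase, had 11.4, 12.5 and 14.7 FPKM in AngII and 8.23, 10.2 and 10.9 in saline (log2 fold change 0.34, SE 0.083, limma adjusted p = 0.441). Its 2 lowest saline values, 8.23 and 8.72 FPKM, were those of the saline libraries with high Adipoq. The log2 fold change of Fyn was 0.24 without those 2 libraries and 0.22 with both covariates. Its minor transcript Fyn-201 was 1.26 to 4.27 FPKM in AngII and 0 to 1.64 in saline, and Fyn-202 was 8.51 to 11.3 in AngII and 7.40 to 10.8 in saline. Neither transcript was free of overlap alone.

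Popdc3, a cAMP-binding membrane protein of striated muscle, had 8.77, 10.6 and 14.8 FPKM in the lowest, median and highest AngII library and 3.55, 7.15 and 8.34 FPKM in saline. Its 2 lowest saline values, 3.55 and 4.36 FPKM, were those of the saline libraries with high Adipoq, and its log2 fold change was 0.74 (SE 0.168) with all libraries and 0.48 without those 2. Dynll2, a dynein and myosin V light chain, had 104, 117 and 174 FPKM in AngII and 62.2, 92.1 and 104 in saline (log2 fold change 0.49, SE 0.235). The lowest AngII library stood at 104.1 FPKM and the highest saline library at 103.7.

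A chaperone and a co-chaperone gene were among the 12, Hspb1, a small heat shock protein that binds unfolded protein and actin filaments, and Ahsa2, a relative of the HSP90 co-chaperone Ahsa1. Hspb1 had 197, 273 and 759 FPKM in the lowest, median and highest AngII library, against 135, 158 and 191 FPKM in saline (log2 fold change 0.92, SE 0.279, limma adjusted p = 0.486). Its highest value came from AngII replicate 5, the AngII library with Myl2 at 3.37 FPKM, and the next was 312 FPKM. Ahsa2 had 4.19 to 5.52 FPKM in AngII and 3.66 to 4.16 in saline (log2 fold change 0.21, SE 0.111). Its transcripts Ahsa2-201 and Ahsa2-202 each overlapped between groups. Otulin, which removes linear ubiquitin chains, also peaked in AngII replicate 5, at 26.1 FPKM. It was 12.1 to 15.8 FPKM in the other AngII libraries, against 10.0 to 11.7 in saline.

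The remaining higher genes were of low level. Ercc1, a subunit of a DNA repair nuclease, had 8.42 to 10.2 FPKM in AngII and 6.52 to 7.82 in saline (log2 fold change 0.30, SE 0.0754). The serine protease gene Prss36 had 1.51 to 3.21 FPKM in AngII and 0.683 to 1.25 in saline. The centrosomal protein gene Fam110b had 2.18 to 3.32 FPKM in AngII and 1.02 to 2.13 in saline, and none of its 3 transcripts was free of overlap alone. Zfp945, a zinc finger protein gene, had 1.42 to 1.65 FPKM in AngII and 1.22 to 1.40 in saline (log2 fold change 0.14, SE 0.0842). The transcripts of Ercc1, Prss36 and Zfp945 also each overlapped between groups, so only the gene sums were separated. Jag2, a Notch ligand left out by the rule because saline replicate 1 was listed at 0 and named after its values were seen, had 4.95 to 6.92 FPKM in AngII and 2.53 to 4.82 in the other saline libraries.

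RefSeq promoter windows on GRCm38.p6, from 250 bases before to 50 bases after the start site, were matched for 9 of the 12 higher genes and 9 of the 12 lower genes. A set of 7 motifs was searched on both strands, and promoters with the heat shock core and the E-box are shown, a choice made after the counts were seen. The heat shock, TEAD and AP-1 motifs each had 2 more higher than lower genes. The core of the heat shock element, GAANNTTC, which reads the same on both strands, was found in the windows of Hspb1, Cxcr4 and Myl12a, 3 of 9 higher genes. It was in 1 of 11 windows of the lower genes (Zfand6) and in 7.86% of all 32851 windows. The E-box CACGTG, also the same on both strands, was in 1 of 9 windows of the higher genes (Myl12a), in 4 of 11 of the lower genes (Armt1, Entpd4b, Irs1 and Tfdp1) and in 7.15% of all windows. The nuclear receptor motif AGGTCA was in the windows of 2 higher and 3 lower genes (16.3% of all windows), the TEAD motif CATTCC in 3 and 1 (14.7%) and the AP-1 motif TGACTCA in 2 and 0 (5.20%). The FOXO motif GTAAACA (3.65% of all windows) and the CArG box (1.63%) were in none of these windows. A match is a description of letters and not a site in use. The windows of Hspb1 (chr5:135887669-135887968, plus strand), Cxcr4 (chr1:128592250-128592549, minus strand) and Myl12a (chr17:71002484-71002783, minus strand) are written 5′ to 3′ with the heat shock core in capitals:
Hspb1: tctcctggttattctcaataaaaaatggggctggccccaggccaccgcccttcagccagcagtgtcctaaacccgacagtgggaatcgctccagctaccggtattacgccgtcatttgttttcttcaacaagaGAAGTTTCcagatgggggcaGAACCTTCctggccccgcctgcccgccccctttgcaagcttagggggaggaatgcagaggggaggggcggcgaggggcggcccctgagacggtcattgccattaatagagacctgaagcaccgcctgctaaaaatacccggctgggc
Cxcr4: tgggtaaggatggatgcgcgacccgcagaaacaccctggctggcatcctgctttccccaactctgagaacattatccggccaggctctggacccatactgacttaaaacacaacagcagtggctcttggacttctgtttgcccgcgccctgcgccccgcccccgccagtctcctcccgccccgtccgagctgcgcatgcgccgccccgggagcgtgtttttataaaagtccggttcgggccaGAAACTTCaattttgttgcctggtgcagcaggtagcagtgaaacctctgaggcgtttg
Myl12a: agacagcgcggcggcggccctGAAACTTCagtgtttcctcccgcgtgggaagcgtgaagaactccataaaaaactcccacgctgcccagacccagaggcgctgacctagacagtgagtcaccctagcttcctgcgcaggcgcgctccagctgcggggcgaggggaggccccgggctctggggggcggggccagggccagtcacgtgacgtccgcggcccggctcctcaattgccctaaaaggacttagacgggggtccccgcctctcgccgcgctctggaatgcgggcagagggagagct
Hspb1 holds the core at 2 places and the others at 1. The windows of Armt1 (chr10:4432355-4432654, plus strand) and Irs1 (chr1:82291390-82291689, minus strand), both lower in AngII, follow with the E-box in capitals:
Armt1: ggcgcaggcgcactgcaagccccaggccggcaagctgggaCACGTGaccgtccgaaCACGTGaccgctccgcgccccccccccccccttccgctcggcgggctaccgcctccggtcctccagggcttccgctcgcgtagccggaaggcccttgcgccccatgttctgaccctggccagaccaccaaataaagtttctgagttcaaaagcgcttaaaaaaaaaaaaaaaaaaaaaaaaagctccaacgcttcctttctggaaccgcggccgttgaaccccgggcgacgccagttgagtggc
Irs1: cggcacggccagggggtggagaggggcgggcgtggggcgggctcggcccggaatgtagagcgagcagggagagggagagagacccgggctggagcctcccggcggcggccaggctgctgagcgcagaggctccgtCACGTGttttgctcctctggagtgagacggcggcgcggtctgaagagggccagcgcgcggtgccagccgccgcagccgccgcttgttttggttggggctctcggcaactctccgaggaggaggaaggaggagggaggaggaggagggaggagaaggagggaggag

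The lower genes other than Angptl4 were mostly of low or middle level. Zfand6, an AN1-type zinc finger protein that binds ubiquitin, had 11.8, 15.8 and 19.5 FPKM in the lowest, median and highest AngII library, against 21.3, 25.0 and 30.0 FPKM in saline (log2 fold change -0.62, SE 0.135, limma adjusted p = 0.321). None of its 5 transcripts was free of overlap alone, and they were not alike, a difference that was not tested. Zfand6-202 was 3.01 to 10.5 FPKM in AngII and 4.36 to 19.3 in saline, whereas Zfand6-208 was 5.74 to 10.6 in AngII and 2.33 to 8.28 in saline. Tfdp1, the dimerization partner of E2F transcription factors, had 1.82, 2.97 and 4.17 FPKM in AngII and 4.20, 6.94 and 10.8 in saline (log2 fold change -1.07, SE 0.251, limma adjusted p = 0.356). When the 5 libraries low in a chamber marker were left out it was at -1.44, and with chamber and adipocyte covariates at -0.84 (SE 0.354). Its relative Tfdp2, named after its values were seen, was at 0.15 (SE 0.325).

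Entpd4b, a nucleotide-hydrolysing enzyme of internal membranes, had 10.9 to 14.5 FPKM in AngII and 14.6 to 33.3 in saline (log2 fold change -0.89, SE 0.232, limma adjusted p = 0.441). The gene has a near-identical copy, Entpd4, which ranged from 0 to 25.1 FPKM in AngII and 0.124 to 34.5 in saline, so the level of either is uncertain. Slc46a1, the proton-coupled folate transporter, had 0.787 to 1.48 FPKM in AngII and 1.57 to 3.44 in saline, with the saline libraries of high Adipoq at the top. Gpr155, a lysosomal membrane protein, had 2.17 to 3.31 FPKM in AngII and 3.38 to 4.03 in saline, and its log2 fold change was -0.32 (SE 0.101) with all libraries and -0.33 with chamber and adipocyte covariates. Rmc1, a regulator of late endosome maturation, had 6.45 to 8.62 FPKM in AngII and 8.70 to 10.2 in saline.

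Irs1, the docking protein of the insulin and IGF1 receptors, had 3.11, 3.35 and 3.69 FPKM in the lowest, median and highest AngII library and 3.71, 4.16 and 5.95 FPKM in saline (log2 fold change -0.33, SE 0.0993, limma adjusted p = 0.486). The highest AngII and lowest saline values nearly met, and the log2 fold change was -0.20 without the 5 libraries low in a chamber marker. Kat7, the catalytic subunit of a histone H3 acetyltransferase complex, had 3.76 to 7.05 FPKM in AngII and 7.13 to 10.4 in saline. Its transcripts Kat7-204 and Kat7-205 each overlapped between groups. The nuclear pore membrane protein gene Ndc1 had 3.29 to 4.10 FPKM in AngII and 4.25 to 6.32 in saline. The scaffold gene Epb41l5 (0.643 to 1.12 FPKM in AngII, 1.23 to 2.36 in saline) and the protein methyltransferase gene Armt1 (1.71 to 2.56 in AngII, 2.62 to 4.72 in saline) were also free of overlap. As for Slc46a1, the top 2 saline values of Zfand6, Ndc1, Epb41l5 and Armt1 were those of the libraries with high Adipoq. Their log2 fold changes were -0.62, -0.39, -0.47 and -0.35 with all libraries. Without those 2 libraries they were -0.53, -0.31, -0.33 and -0.20.

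All 24 genes kept their sign in each setting plotted by gene: with chamber and adipocyte covariates, without the 5 libraries low in a chamber marker, and without the 2 saline libraries with Adipoq over 100 FPKM. The higher genes lay between 0.14 and 0.92 with all libraries and between 0.14 and 0.71 with both covariates. The lower genes lay between -2.46 and -0.32 with all libraries and between -1.83 and -0.23 with both covariates. The choice of genes without overlap favours a stable sign, so this count supports nothing by itself.

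**Figure D3:**
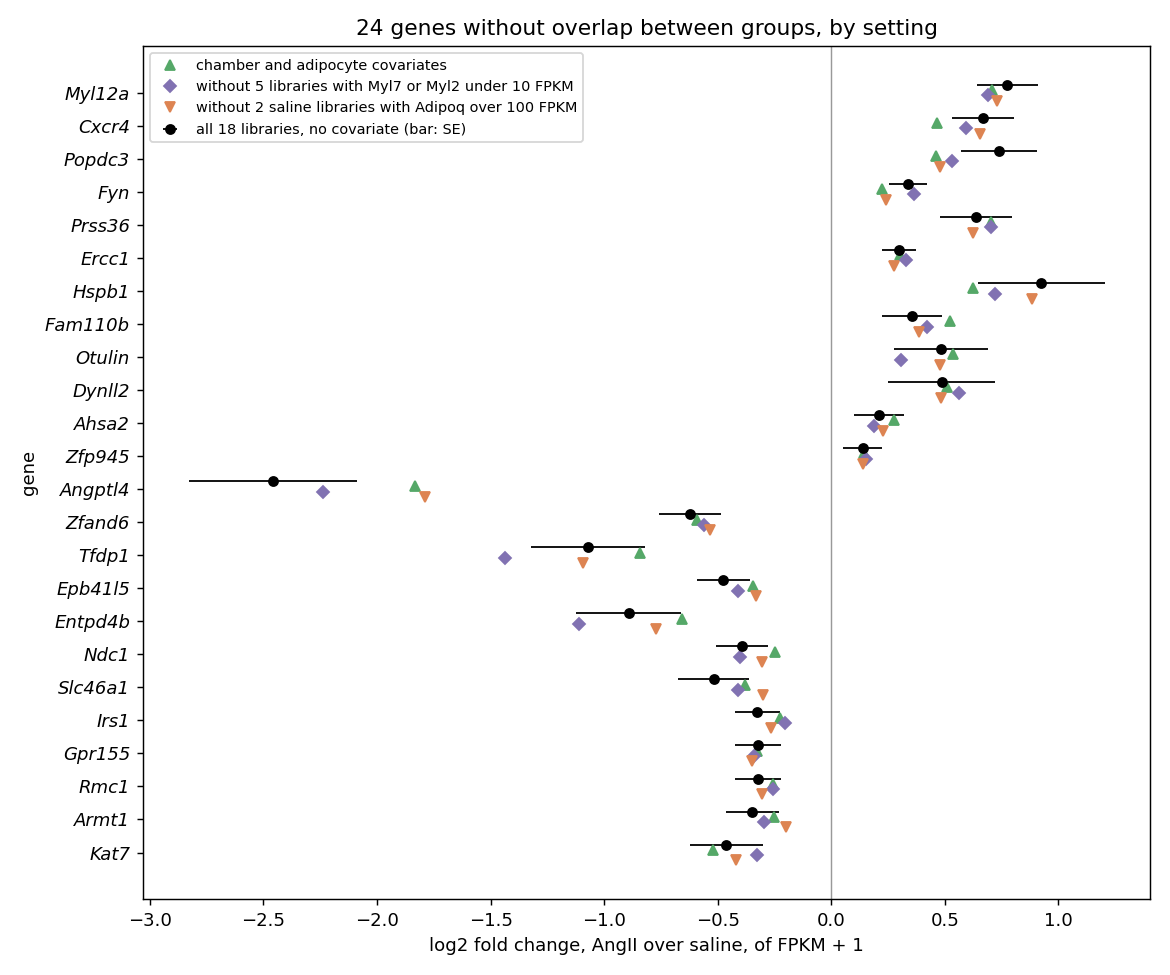
Log2 fold change of FPKM + 1, AngII over saline, of the 24 genes without overlap; black circles with bars are all 18 libraries with the SE, green triangles add chamber and adipocyte covariates, purple diamonds leave out 5 libraries with Myl7 or Myl2 under 10 FPKM, and orange triangles leave out 2 saline libraries with Adipoq over 100 FPKM. Myl12a stays between 0.69 and 0.77, while Angptl4 ranges from -2.46 to -1.79.

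The AngII+ETH libraries entered the fit whose p ranked these genes, share the saline libraries as reference and come from files with another transcript list, so their levels are given as values and not as support. Myl12a was 292 to 431 FPKM in AngII+ETH, Otulin 12.3 to 33.5 and Angptl4 0.631 to 1.81, all beyond the whole saline range. Prss36 (median 1.14 FPKM), Ahsa2 (3.91) and Zfp945 (1.28) in AngII+ETH lay within the saline range, as did Tfdp1 (5.64), Armt1 (2.72) and Kat7 (8.18).

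In lists of genes by function, most single genes did not reach an unadjusted p under 0.05. In the plot of gene lists, medians of the functional lists lay between -0.16 and 0.07, near the -0.06 of all tested genes, and Angptl4 was the one member of any list past the adjusted threshold. Among 22 tested genes of lipoprotein lipase control and fatty acid uptake, 4 were lower and 0 higher at an unadjusted p under 0.05, against 5.78% lower and 3.28% higher of all tested genes (3 lower with both covariates). Besides Angptl4 they were Pdk4, the kinase that shuts pyruvate dehydrogenase, the mitochondrial carrier gene Ucp3 and the lipid droplet gene Plin2, the last pair named after their values were seen. Pdk4 had 40.3, 76.1 and 107 FPKM in the lowest, median and highest AngII library and 74.8, 142 and 190 in saline (log2 fold change -0.92, SE 0.252, limma adjusted p = 0.486). It was at -1.05 with both covariates and -0.85 without the fat-rich saline libraries. Ucp3 had 1.10 to 10.3 FPKM in AngII and 10.3 to 23.1 in saline. Plin2 reached 85.5 and 238 FPKM in the saline libraries with high Adipoq and was at -1.61 (SE 0.634) with all libraries and -0.04 with both covariates. The uptake gene Cd36 (0.26, SE 0.184) and the lipase gene Lpl (0.42, SE 1.40) were positive with all libraries. Lpl was at -1.29 without the 5 libraries low in a chamber marker, with a spread from 0.745 to 779 FPKM in AngII and 2.15 to 553 in saline.

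**Figure D4:**
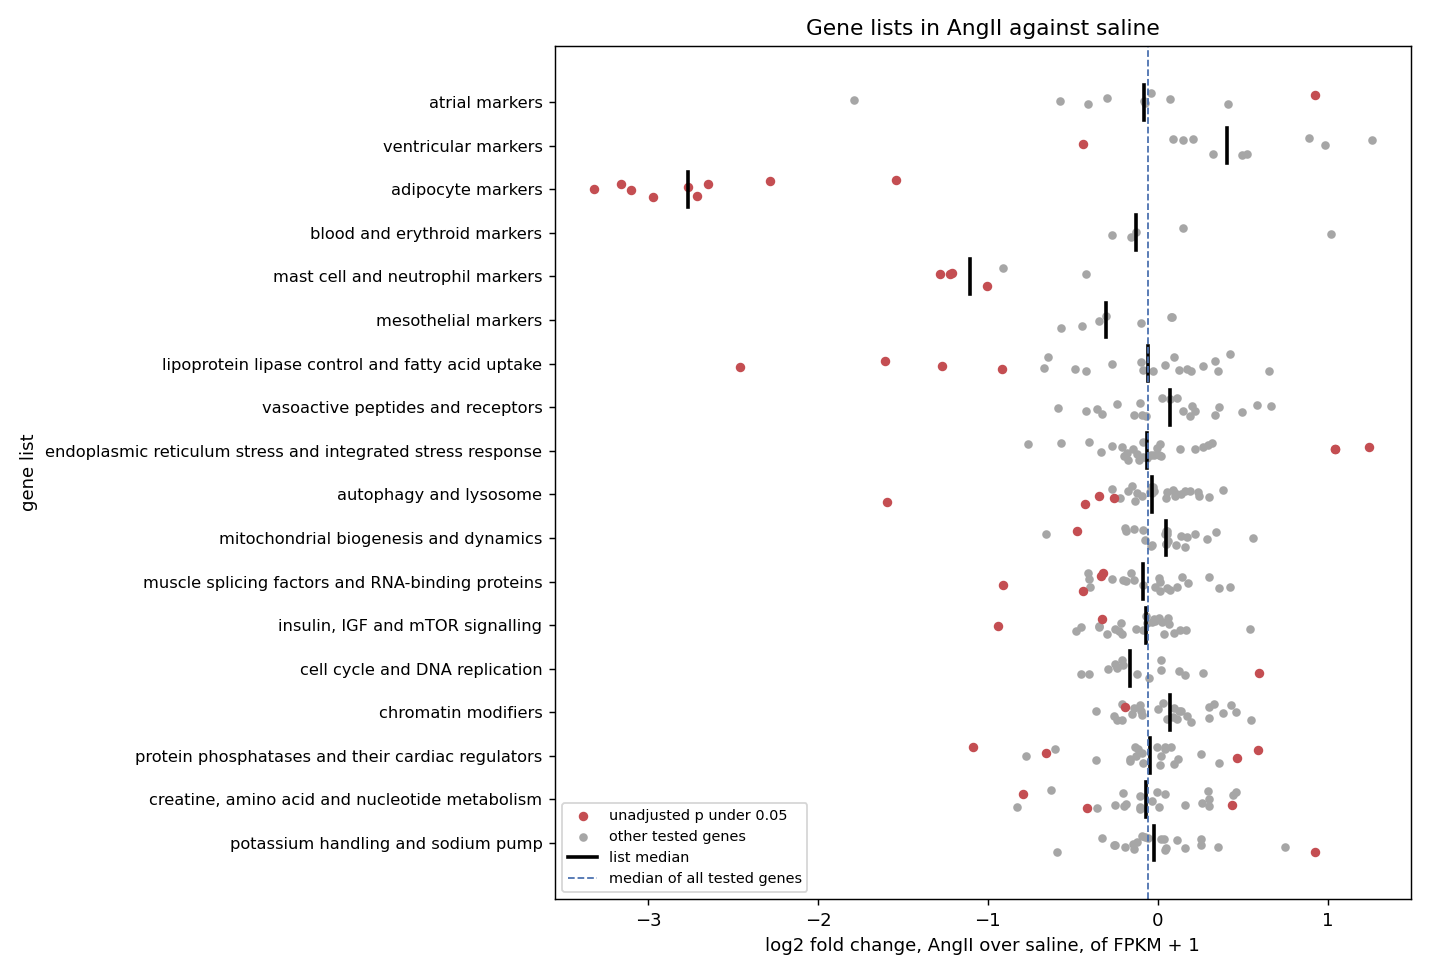
Log2 fold change of FPKM + 1, AngII over saline, for the tested genes of each list shown, all with at least 5 of them; red points have an unadjusted p under 0.05, grey points do not, black bars are list medians and the dashed line is the median of all 11703 genes. Adipocyte genes stand far to the left (median -2.76), with mast cell and neutrophil genes (-1.11), while the functional lists centre near -0.06.

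Among 29 genes of endoplasmic reticulum stress and the integrated stress response, 3 were higher and 0 lower at an unadjusted p under 0.05, against 3.28% higher and 5.78% lower of all tested genes. Without the 5 libraries low in a chamber marker 2 were higher and 2 lower. Ddit4, an inhibitor of mTORC1 induced by stress and glucocorticoids, had 12.7, 28.6 and 42.6 FPKM in the lowest, median and highest AngII library and 5.89, 12.2 and 13.9 FPKM in saline (log2 fold change 1.25, SE 0.295, limma adjusted p = 0.363). A single AngII library, replicate 4, overlapped the saline range. The stress sensor gene Atf6 had 2.37 to 21.3 FPKM in AngII and 1.19 to 8.58 in saline, and Atf3, a stress-induced transcription factor named after its values were seen, had 2.73 to 21.8 in AngII, highest in replicate 5, and 1.55 to 7.40 in saline. The median of the list was -0.06.

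Of 25 tested muscle splicing factors and RNA-binding proteins, 4 were lower and 0 higher at an unadjusted p under 0.05, against 5.78% and 3.28% of all tested genes (4 lower with both covariates, 2 without the fat-rich saline libraries). Srsf5 had 9.82, 14.9 and 32.5 FPKM in the lowest, median and highest AngII library and 22.3, 31.0 and 56.4 in saline (log2 fold change -0.91, SE 0.25, limma adjusted p = 0.486). It was at -1.09 with both covariates and -0.67 without the fat-rich saline libraries, which held its top saline values of 56.4 and 36.7 FPKM. Its transcripts were not alike, which was not tested either. Srsf5-201 was 2.60 to 8.76 FPKM in AngII and 5.71 to 23.0 in saline, while Srsf5-206 was 0.698 to 1.54 in AngII and 0.0979 to 0.753 in saline. Srsf6 had 9.09 to 16.8 FPKM in AngII and 13.0 to 19.9 in saline.

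In the insulin, IGF and mTOR list 2 of 28 genes were lower, Irs1 and Deptor, and 0 higher, a share near the 5.78% of all tested genes, and with both covariates 0 were lower. Deptor, a component of mTOR complexes, had 1.77 to 3.16 FPKM in AngII, against 12.8 and 25.4 FPKM in saline replicates 4 and 6 and 1.63 to 3.28 in the other saline libraries. Its log2 fold change was -0.94 with all libraries and 0.10 with both covariates. The phosphatase inhibitor gene Ppp1r1a reached 20.0 and 21.0 FPKM in those 2 saline libraries and was at -1.09 with all libraries and 0.37 with both covariates. The phosphatase subunit gene Ppp2r5a reached 116 and 197 FPKM there and was at -0.66 with all libraries and 0.12 with both covariates. The other named members of the phosphatase list were higher, the glycogen-targeting subunit Ppp1r3c (38.7 to 86.3 FPKM in AngII, 35.3 to 48.7 in saline) and Dusp27 (8.45 to 19.6 in AngII, 4.98 to 10.7 in saline). Without the 5 libraries low in a chamber marker Ppp1r3c was at 0.29, against 0.47 with all libraries, and Dusp27 at 0.26, against 0.59. Of the 24 tested genes of this list 2 were higher and 2 lower, against 3.28% and 5.78% of all tested genes. With both covariates 0 were higher and 0 lower, against 250 and 213 of all 11703 genes.

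The same count was made for the other functional lists, with all libraries to be read against 3.28% higher and 5.78% lower of all tested genes. Of 28 autophagy and lysosome genes 4 were lower, and 0 with both covariates or without the fat-rich saline libraries. The protease gene Ctsb had 103 to 126 FPKM in AngII and 108 to 229 in saline, and was at -0.43 with all libraries and -0.18 with both covariates. The mitophagy receptor gene Bnip3 had 15.6 and 26.7 FPKM in AngII replicates 1 and 2 and 1.95 to 3.68 in the other AngII libraries, while saline replicate 5 stood at 3.43 and the other saline libraries at 20.0 to 29.5. Of 24 mitochondrial biogenesis and dynamics genes, 1 was lower, the inner membrane fusion gene Opa1, at 9.22 to 16.0 FPKM in AngII and 13.5 to 24.3 in saline. Of 16 cell cycle genes 1 was higher, the kinase inhibitor gene Cdkn1a (11.5 to 29.3 FPKM in AngII, 6.31 to 17.8 in saline). Of 28 chromatin modifiers 1 was lower, the histone deacetylase gene Hdac3 (18.2 to 20.8 FPKM in AngII, 20.2 to 23.7 in saline). In creatine, amino acid and nucleotide metabolism the creatine transporter gene Slc6a8 was higher (38.3 to 67.1 FPKM in AngII, 23.9 to 45.0 in saline), while the transaminase gene Gpt2 (3.44 to 7.57 in AngII, 6.44 to 9.36 in saline) and the glutamine synthetase gene Glul were lower. Glul had 217 and 348 FPKM in the saline libraries with high Adipoq and at most 121 in any other library, and was at -0.79 with all libraries and -0.14 with both covariates. Gpt2 was at -0.42 and -0.24 in those fits. Of 22 potassium handling genes 1 was higher, the potassium channel gene Kcna5 (6.04 to 13.4 FPKM in AngII, 3.29 to 7.42 in saline). It is on the atrial marker list, but these libraries did not show it as atrial. It stood at 13.2 FPKM in the AngII library without Myl7, and its highest saline value, 7.42 FPKM, came from the saline library without Myl7. Its log2 fold change was 0.92 with all libraries and 0.55 with both covariates. Of 21 vasoactive peptide and receptor genes none reached an unadjusted p under 0.05.

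Markers of some other cell types differed between the groups. Their counts with all libraries are to be read against 3.28% higher and 5.78% lower of all tested genes at an unadjusted p under 0.05. Of all 11703 genes, 250 were higher and 213 lower with both covariates, and 351 and 216 without the fat-rich saline libraries. Without the 5 libraries low in a chamber marker 422 were higher and 960 lower. All 9 tested adipocyte genes were lower in AngII at an unadjusted p under 0.05 (6 of 9 without the 2 saline libraries with high Adipoq, and 0 with both covariates, of which Adipoq is part), with Retn at 0 to 1.33 FPKM in AngII and 0 to 58.9 in saline and Cidec at 0 to 2.15 in AngII and 0 to 109 in saline. The summed mast cell and neutrophil markers, 7 of 11 in the files, had a median of 7.10 FPKM and a highest of 10.2 in AngII, against a median of 20.7 and a range of 8.59 to 41.8 in saline. Of 6 tested mast cell and neutrophil genes 4 were lower, the mast cell genes Tpsb2, Cpa3, Mcpt4 and Cma1 (2 lower without those libraries and 0 with both covariates). The neutrophil gene S100a9 was not among them, with 13.4 FPKM in saline replicate 3 and 0.614 to 2.35 in the other saline libraries. Tpsb2, a mast cell tryptase, had 0.272 to 2.38 FPKM in AngII and 1.82 to 9.18 in saline, and Cpa3 0.121 to 1.17 in AngII and 0.514 to 5.31 in saline. Tpsb2 was at -1.28 with all libraries and -0.48 with both covariates, and Cpa3 at -0.22 with both covariates. S100b, which Schwann cells express, had 0.645 to 1.26 FPKM in AngII. It had 7.39 and 15.1 FPKM in saline replicates 4 and 6 and 0.708 to 2.68 in the other saline libraries. The potassium channel gene Kcna1 had 0.284 to 0.930 in AngII and 0.416 to 1.76 in saline. S100b was at -1.11 with all libraries and 0.10 with both covariates, and Kcna1 at -0.47 and -0.04. The immunoglobulin gene Ighm, the single tested lymphocyte marker, had 0.573 to 1.05 FPKM in AngII and 0.891 to 12.5 in saline, and was at -1.12 with all libraries and -0.53 with both covariates. With all libraries 9 of the 10 ventricular markers had a positive log2 fold change (median 0.41), none with an unadjusted p under 0.05, and 1 a negative one, Hey2. This transcription factor, on the ventricular list, had 1.12 to 2.94 FPKM in AngII and 1.81 to 5.10 in saline (log2 fold change -0.44, and -0.01 with both covariates). Its top saline values, 5.10 and 3.96 FPKM, were those of the libraries with high Adipoq, against 2.75 in the saline library without Myl7. In saline it thus did not follow Myl2. Without the 5 libraries low in a chamber marker, 5 ventricular markers were higher and 0 lower at an unadjusted p under 0.05 (median 0.44). Without the fat-rich saline libraries 0 were higher and 0 lower (median 0.006). The 10 atrial markers had a median of -0.08 with all libraries, and only Kcna5 had an unadjusted p under 0.05. The atrial median was -0.46 without the libraries low in a chamber marker and 0.48 without the fat-rich saline libraries. The parts of fat, nerve and immune cells in the other differences were not tested beyond these values. Blood, mesothelial and brown adipocyte lists held no gene at an unadjusted p under 0.05, and their sums overlapped between groups, for blood genes 1872 to 4444 FPKM in AngII and 1290 to 4828 in saline. Only 4 of 8 brown adipocyte markers were found, and Cox8b alone was at least 401 FPKM in each of the 12 libraries. Within that list, Cidea was 314 and 598 FPKM in saline replicates 4 and 6 and 4.02 to 21.9 in the rest. Dio2 was instead highest in AngII replicate 5, at 15.3 FPKM.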

How the data were processed

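Per the labels' protocols, ribosomal RNA was removed from total cardiac RNA before library construction. The deposited files hold 1 value per transcript, computed by the authors and read here as FPKM, a unit inferred because values times transcript length fell on steps: 45.8 to 56.7% of those up to 10 fragments were within 0.05 of a whole fragment. The submitters' processing notes name limma, and the aligner, build and counter were not given in the sources used here.

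Of 28886 transcripts shared by all files, 20478 were found in GENCODE M21 and added up to 12911 genes. The 8239 unnamed transcripts, 10.4 to 15.0% of the sum in the 12 libraries, were left out, so a gene can be listed too low. Replicates correlated at 0.794 to 0.897 across transcripts (log2).

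All 18 libraries were fitted together with limma 3.58.1 (R 4.3.3, intensity trend) on log2(FPKM + 1), which understates changes of low genes, with Benjamini-Hochberg adjustment over all tested genes. Simulation among 11703 genes recovered 71% of 100 genes changed by 1 log2 unit and 95% of 100 changed by 2, with 6 false calls. Its noise was normal and drawn independently for each gene and library, without chamber or fat differences shared across genes. These rates therefore need not hold for the real libraries. The chamber covariate was log2(Myl7 + 1) minus log2(Myl2 + 1), the adipocyte covariate log2(Adipoq + 1). Members and lists were chosen with earlier results of these data known. Named were the 12 protein-coding genes per direction with the smallest p, no overlap, no library at 0 and no classic marker role, with Myl7, Myl2, Adipoq, Angptl4 and up to 2 genes per list and direction with an unadjusted p under 0.05. Genes above 0 throughout one group and at 0 throughout the other were also sought, and 0 were found. Alternatives varied the scaling, pseudocount (0.1), filter, trend, weights, transcripts, covariates and libraries. Counts of list members with covariates or without libraries were added after the data were seen. The summary of the Schwann cell list is not reported here.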

Additional observations from a re-analysis of the deposited data

Results flagged for a closer look

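For 9 of 108 gene and group pairs of the named genes, 1 library stood apart from the other 5 of its group by Dixon's criterion at the 95% level, which chance alone meets in about 1 in 20 groups. AngII replicate 5, the AngII library with Myl2 at 3.37 FPKM (the others 3904 to 6019), held the highest Hspb1 (759 FPKM, the others 197 to 312) and the highest Otulin (26.1 FPKM, the others 12.1 to 15.8). AngII replicate 3 was the library with Myl7 at 0 (the others 1492 to 1983 FPKM). Cidec was 2.15 FPKM in AngII replicate 4, with the others at 0 to 0.0252, and 109 FPKM in saline replicate 6, with the others at 0 to 19.7. Bnip3 was 3.43 FPKM in saline replicate 5, the saline library without Myl7, with the others at 20.0 to 29.5. Fam110b was 1.02 FPKM in saline replicate 1, with the others at 1.83 to 2.13. Ddit4 was 5.89 FPKM in saline replicate 2, with the others at 10.9 to 13.9.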

How the results depend on the processing

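The number of genes past the adjusted threshold (1) became 2 with quantile normalization or median-of-ratios scaling, 3 with sample weights, 4 with the chamber covariate, 2 without the 5 libraries low in a chamber marker (Myl7 or Myl2 below 10 FPKM), 2 without the saline libraries with Adipoq over 100 FPKM, and 0 with saline and AngII libraries only, with every transcript of their files or with both covariates. It was 0 to 11 with 1 library left out, 11 of them without saline replicate 5. At an unadjusted p under 0.05 the higher genes (384) were 625 with quantile normalization and 250 with both covariates. The lower genes (676) were 357 with a filter of 5 FPKM, 1066 with sample weights, 213 with both covariates and 216 without the fat-rich saline libraries. With 1 library left out they were 351 to 1442, with 351 without saline replicate 4, 394 without replicate 6 and 1442 without replicate 5, and the higher genes 299 to 494. Genes without overlap (19 higher, 23 lower) were 10 and 10 with a filter of 5 FPKM, 288 and 821 without the 5 libraries low in a chamber marker, and 50 and 47 without the fat-rich saline libraries, where fewer libraries make separation easier. With 1 library left out they were 21 to 69 and 28 to 210. Changes in these counts follow in part from the smaller number of genes or libraries, and otherwise the cause was not tested. Without the 5 libraries low in a chamber marker, Myl2 itself did not overlap (3904 to 4437 FPKM in AngII, 361 to 3422 in saline). Its log2 fold change there was 1.54, so the groups still differed in this chamber marker. Over the 54 named genes 1320 of 1328 fold changes under an alternative kept their sign. It changed with both covariates for S100b (0.099), Ppp2r5a (0.117), Deptor (0.097) and Ppp1r1a (0.371). Myl2 (0.98) was at -1.06 and Myl7 (-0.58) at 0.51 without the fat-rich saline libraries, and with 1 library left out Myl2 ranged from -0.46 (without saline replicate 6) to 2.65 and Myl7 from -2.49 to 1.22 (without AngII replicate 3). No paired analysis was possible because the labels give no replicate numbers, and the numbers used here were assigned by accession order as names. Depth is known by inference alone, which limits what can be said of genes near 1 FPKM.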
